A study of Arabidopsis thaliana with 9 samples.

Results

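Guides that trigger secondary siRNAs, together with miRNAs that pair with pentatricopeptide repeat (PPR) and immune receptor mRNAs, were followed in nanoPARE data of Arabidopsis thaliana seedlings. NanoPARE captures the 5′ ends of RNA, among them the ends left when a miRNA guides cleavage. The members were all listed candidate slice sites named for miR161, miR173, miR390, miR400, miR472 or miR828, on either arm of the precursor, leaving out the heat shock loci AT2G29500 and AT3G46230. This gave 37 sites in 37 loci, named for 10 mature guides, of 1662 sites in all (2.23%). A site is a transcript and slice position, and the 37 sites filled 54 of the 3041 lines listed over 9 libraries. The 2 loci left out held 2 further sites with 12 lines.

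Col 0 seedlings, 7 days old, made up 3 groups of 3 libraries. Recovery seedlings were heated for 1 h at 37°C and then kept for 2 h at 22°C, HS (heat stress) seedlings were heated for 1 h at 37°C, and Control seedlings were not heated. All groups shared genotype, age and growth medium, and each library came from whole seedlings, so that fewer cells with a transcript and fewer copies per cell cannot be told apart. The series describes the 3 libraries of a group as biological replicates, and it does not say how many seedlings each pooled.

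In plants, most miRNAs act in AGO1 and guide the cutting of well-paired mRNAs. A few guides instead start a second wave of small RNAs: after cleavage the fragment is copied by RDR6 with the help of SGS3, and DCL4 dices the copy into phased secondary siRNAs. miR173 does this on the TAS1 and TAS2 transcripts, miR390 in its own Argonaute AGO7 on TAS3, and miR828 on TAS4. miR161 and miR400 pair with mRNAs of PPR proteins, which bind organelle RNA, and miR472 pairs with mRNAs of coiled-coil NLR immune receptors, some of which also yield secondary siRNAs.

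The guides are shown first because each listed site was called by its pairing to one of them. Sequences are from RefSeq (TAIR10.1), written 5′ to 3′, and capitals mark the seed, bases 2 to 8.
miR161.1: uGAAAGUGacuacaucggggu
miR161.2: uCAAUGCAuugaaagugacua
miR173-5p: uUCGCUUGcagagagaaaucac
miR173-3p: uGAUUCUCuguguaagcgaaa
miR390a-5p: aAGCUCAGgagggauagcgcc
miR390a-3p: cGCUAUCCauccugaguuuca
miR390b-3p: cGCUAUCCauccugaguucc
miR400: uAUGAGAGuauuauaagucac
miR472-3p: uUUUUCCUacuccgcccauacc
miR828: uCUUGCUUaaaugaguauucca

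The 10 guides held 9 distinct seeds. miR390a-3p and miR390b-3p, the arms opposite the functional miR390 guide, shared their seed and their first 18 bases. The 5p arms of both miR390 genes have the same sequence, and the lists named these sites for miR390a-5p. miR161.1 and miR161.2 come from the same precursor, their starts 9 bases apart, and share 12 bases. miR173-5p, miR472-3p and miR828 are 22 nt long, the length commonly linked to secondary siRNA production, whereas miR390a-5p, miR400 and both miR161 guides are 21 nt long.

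Only 3 of the 37 member sites were well paired, meaning a deposited Allen score of 4 or less. The Allen score is a penalty for mismatches, G:U pairs and bulges, and it is 0 for a perfect duplex. These 3 sites scored 0, 1 and 3, and the other 34 scored 5 (10 sites), 5.5 (15 sites) or 6 (9 sites), so that no member lay between 3 and 5. The 3 well-paired sites lay in PPR or NLR mRNAs that the guides are known to target. They are shown 5′ to 3′ on the mRNA, and capitals mark bases that do not form a Watson-Crick pair with the guide.
miR400 site in AT1G06580: gtgacttataatactctcata
miR472-3p site in AT5G43740: ggtatgggGggagtaggaaaaa
miR161.2 site in AT1G63130: tagtcactttcaGCgcattga

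The miR400 site in AT1G06580 (PPR1, a PPR protein) is the full complement of the guide. It lies at chr1:2014950-2014970 on the minus strand of TAIR10.1, in the coding part of exon 1 of 1. It was listed in HS replicate 3 alone, at 0.326 RPM (reads scaled to library size), and was unlisted in the other HS libraries, in all Recovery libraries and in all Control libraries. That value was 1 read. The fold over local background, deposited as a ratio of RPM plus 1, was 1.33 with no background read, and the deposited adjusted p was 0.

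The miR472-3p site in AT5G43740, a CC-NBS-LRR immune receptor, has 1 base that does not pair, and lies at chr5:17566541-17566562 on the plus strand, in the coding part of exon 2 of 2. It was unlisted in all Recovery and all HS libraries, and in Control it had 0, 0.349 and 0.158 RPM in replicates 1, 2 and 3, or 0, 1 and 0.5 reads. How the fraction of a read arose was not tested. The site sequence is also present in AT1G51480, another receptor of this class. Folds were 1.35 and 1.16 over no local background, with a deposited adjusted p of 0 in both Control libraries.

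The miR161.2 site in AT1G63130 has 2 bases outside Watson-Crick pairs, and lies at chr1:23413830-23413850 on the plus strand, in the coding part of exon 1 of 1. AT1G63130 is RPF6, which RefSeq annotates as a tetratricopeptide repeat (TPR)-like protein and which carries the name of an RNA processing factor. It was unlisted in all Recovery and all HS libraries, and in Control it had 0.349 RPM in replicate 2 and was unlisted in replicates 1 and 3. Again this was 1 read, with a fold of 0.795, below its local background, and a deposited adjusted p of 0.391. The same site stands in AT1G62910, AT1G62914 and AT1G62930, with 28 to 30 identical bases from site base 11 on, and whether the read could be told apart among the 4 loci was not tested.

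Summed over these 3 sites, signal was 0 RPM in every Recovery library. It was 0, 0 and 0.326 RPM in HS replicates 1, 2 and 3, and 0, 0.698 and 0.158 RPM in Control replicates 1, 2 and 3. Recovery, HS and Control libraries overlapped at 0. None of the 3 sites was listed in 3 libraries, so none entered the site test, and a difference between groups was not detectable at this depth. A count of 1 read has an exact 95% Poisson interval of 0.0253 to 5.57 reads, which covers counting error only.

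The classes were formed by the Allen score, and the deposited adjusted p varied with that score and with the fold. The miR472-3p site, of score 1, had a p of 0 at 0.5 reads. STIPL1, a splicing factor with a miR390a-3p site of score 6, had 0.471 at 2 reads over no background in Control replicate 1. At score 5 in HS replicate 3, the deposited adjusted p was 0.226 for AT1G08125 (fold 1.49) and 0.782 for AT3G11130 (fold 1). The shares that follow therefore describe the classes and are no separate finding. The adjusted p was under 0.05 in 3 of the 4 lines of the well-paired sites (75.0%) and in 0 of the 50 lines above score 4, where the lowest was 0.226. Together this made 3 of 54 member lines (5.56%), beside 126 of all 3041 lines (4.14%). Among the other guides it was 118 of 641 lines at scores of 4 or less (18.4%) and 5 of 2334 lines above it (0.214%). The median fold was 1.24 in the well-paired and 1.00 in the weakly paired member lines, and 0.806 over all lines.

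Most known pairs of these guides were not listed. A list of 45 known guide and target pairs in 35 loci was drawn up, of which 39 pairs had a score of 4 or less in RefSeq transcripts. Scores of unlisted pairs were computed here and can differ from deposited ones. This computation gave the deposited score at 22 of the 37 member sites. The lists held 3 of the 45 pairs, the well-paired sites above. By guide, they held 1 of 19 pairs of miR161, 1 of 10 of miR400, 1 of 7 of miR472, 0 of 4 of miR173, 0 of 3 of miR390 and 0 of 2 of miR828. The 45 pairs include AT1G62860, a pseudogene with no transcript to score, and 8 TAS loci, which may not have been searched (below). All pairs of miR173 and miR390 are TAS loci. The share of known pairs listed for other guides was not computed. An ungapped search of all RefSeq transcripts found 66 loci with a score of 4 or less for a member guide, 30 of them annotated as PPR or TPR-like and 13 as NLR, and the same 3 were listed for the guide that pairs there.

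The TAS transcripts, from which trans-acting siRNAs are made, were absent from every list. By the scores computed here, all 8 TAS loci searched have a site of 6 or less, and 6 have one of 4 or less. The highest deposited score in the lists was 6. Sites for 3 of them are shown as what the canonical triggers would cut, with capitals as before.
miR173-5p site in TAS1A: gtgatttTtctctAcaagcgaa
miR390a-5p site in TAS3A: TgTctatccctcctgagct
miR828 site in TAS4: tggaatactcatttGagcaaga

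These lie at chr2:11722081-11722102 (minus strand, score 2.5), chr3:5862344-5862362 (plus strand, score 3.5) and chr3:9417809-9417830 (minus strand, score 1). None of the 8 loci was listed for any guide. RefSeq calls them ncRNA, and none of the 1662 listed sites lay in a locus of that kind: 1632 were in protein-coding loci, 5 in transcribed pseudogenes, 1 in another pseudogene and 24 had no entry. Whether non-coding transcripts were part of the search is not stated in the sources used here, so the TAS result cannot be read as missing cleavage. The lists name miRNA guides only, so cleavage guided by trans-acting siRNAs could not appear in them. Of their known targets, 1 of 8 was listed for a miRNA (ARF4, an auxin response factor, for miR5024-5p in 1 library). ARF2, ARF3, HTT1, HTT2, MYB75, MYB90 and MYB113 were unlisted. RDR6, SGS3, DCL4, AGO7, AGO1 and DRB4, which make or use these siRNAs, were unlisted as well (0 of 6). The share of all loci listed for any miRNA was not computed, so both counts are description only.

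Signal at the members was near the limit of 1 read throughout. Member values ran from 0.158 to 1.02 RPM, with a median of 0.349 RPM or 1 read. In all, 33 of 54 lines (61.1%) were 1 read, to within 0.01 of a read, beside 53.9% of all listed lines, and 8 were above 2 reads. A read was worth 0.217 to 0.429 RPM, for implied totals of 2331769 to 4609739 reads per library. Of the 37 sites, 29 were listed in 1 library (78.4%), 4 in 2 libraries and 4 in 3 or more, while 63.6% of all sites were in 1 library. Listing in at least 2 of 3 replicates of a group held for 6 member sites (16.2%) and for 24.1% of all sites.

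Summed over all members, signal was 1.46, 1.55 and 1.95 RPM in Recovery replicates 1, 2 and 3 (1.65 ± 0.265, SD, n = 3). It was 2.38, 1.76 and 6.84 RPM in HS replicates 1, 2 and 3 (3.66 ± 2.77, SD, n = 3) and 3.43, 3.84 and 2.68 RPM in Control replicates 1, 2 and 3 (3.32 ± 0.585, SD, n = 3). All Recovery libraries were below all Control libraries, while HS overlapped both. The listed signal of all guides differed in the same way, at 125 to 181 RPM in Recovery, 170 to 345 RPM in HS and 298 to 333 RPM in Control. As a share of it the members held 1.05 ± 0.170% in Recovery, 1.26 ± 0.637% in HS and 1.06 ± 0.220% in Control (SD, n = 3), and these ranges overlapped. With libraries rescaled to the same listed signal, the weakly paired members had 2.62 RPM in Recovery and 2.42 RPM in Control, against 1.65 and 3.03 RPM as deposited.

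HS replicate 3 stood apart, with 12 of the 54 member lines and 1.98% of its listed signal, against 0.775% to 1.22% in the other 8 libraries. It had 382 listed lines, more than HS replicates 1 (295) and 2 (277), at an implied 3068238 reads. Without it, 42 member lines at 29 sites remained, and 2 lines had a deposited adjusted p under 0.05. The mean of the weakly paired members in HS was then 2.07 RPM, beside 3.55 RPM with it.

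By guide, the 3p arms of miR390 held the most signal. The 3p guides miR390a-3p and miR390b-3p, for which the list of known pairs holds no target, had 13 sites and 25 lines, all above score 4. Their sum was 0.582, 0.927 and 0.651 RPM in Recovery replicates 1, 2 and 3, 1.02, 1.51 and 3.26 RPM in HS replicates 1, 2 and 3, and 2.14, 1.74 and 0.947 RPM in Control replicates 1, 2 and 3. Every library listed at least 1 of these sites, and each Recovery library lay below each HS and each Control library in RPM. As a share of the listed signal of all guides, which was also lower in Recovery than in Control, they held 0.379% to 0.513% in Recovery, 0.332% to 0.945% in HS and 0.285% to 0.718% in Control, and these ranges overlapped. The functional arm, miR390a-5p, had 3 weak sites with 1 line each. It had 0.291, 0 and 0.434 RPM in Recovery replicates 1, 2 and 3, 0 RPM in every HS library, and 0.316 RPM in Control replicate 3 alone.

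miR161 came next with 8 sites and 11 lines. Its sum was 0, 0.618 and 0.651 RPM in Recovery replicates 1, 2 and 3, 1.36, 0 and 1.63 RPM in HS replicates 1, 2 and 3, and 0, 1.05 and 0.947 RPM in Control replicates 1, 2 and 3. Each group had a library at 0, and the 3 groups overlapped. miR161.1 had 2 lines in each group, while miR161.2 had 0 in Recovery, 3 in HS and 2 in Control.

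miR173 had 6 weak sites. Its 3p arm had 3 lines in Recovery, 1 in HS and 1 in Control, and its 5p arm, the trigger of TAS1 and TAS2, had 2 lines, both in Control replicate 1. miR400 had 0 lines in Recovery, 2 in HS and 1 in Control, and miR472-3p 0, 2 and 2. miR828 had 1 line, in Control replicate 1 at 0.429 RPM. Thus miR161.2, miR173-5p, miR400, miR472-3p and miR828 were listed in no Recovery library, with 15 lines among them in HS and Control. They were grouped for that absence and had few lines each, from 1 (miR828) to 5 (miR161.2). How often guides with so few lines lack a Recovery line was not counted over all guides. Lists of all guides held 315 ± 56.5 lines in Recovery, 318 ± 56.2 in HS and 380 ± 53.1 in Control (SD, n = 3), and implied totals were 3760450 ± 742232 reads in Recovery, 3330790 ± 571055 in HS and 2788740 ± 423257 in Control (SD, n = 3). Their part in the listing of these guides was not tested, nor was the difference between groups.

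In total, Recovery held 13 lines at 10 member sites, HS 20 lines at 17 and Control 21 lines at 17. Sites listed in 1 group only numbered 6 in Recovery (16.2%), 13 in HS (35.1%) and 12 in Control (32.4%), beside 22.6%, 21.7% and 26.7% of all 1662 sites. Without HS replicate 3 they numbered 6 in Recovery (20.7%), 5 in HS (17.2%) and 13 in Control (44.8%) of 29 sites. Over all 1513 sites then listed, the shares were 25.9% in Recovery, 14.0% in HS and 32.4% in Control. With 29 of 37 sites in 1 library, most of these counts are of single lines.

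Only 4 member sites were listed in at least 3 of the 9 libraries, and these were tested with limma on log2(RPM + 1) among 322 such sites of all guides. All 4 were weakly paired, and 3 belonged to miR390a-3p. They are shown because they carry the between-group tests, with capitals for bases outside Watson-Crick pairs.
miR390a-3p site in AT1G08125: tgaGactAcGggatggaAagc
miR390a-3p site in HMGB2: tgaTGctGaggatggtagTg
miR390a-3p site in NIA2: tgaaTctGGTggatggatGgcg
miR161.1 site in GAE1: TTTTcgatgtGgtTGctttca

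These sequences are the best matches in each transcript, and all 4 matches lie in coding sequence: AT1G08125 at chr1:2539926-2539946 (minus strand, exon 9 of 10), HMGB2 at chr1:7178352-7178371 (plus strand, exon 7 of 8), NIA2 at chr1:14160419-14160440 (plus strand, exon 3 of 3) and GAE1 at chr4:14882776-14882796 (minus strand, exon 1 of 1). Coordinates are of the sequence match, not of the read ends. The base opposite guide base 10 lay past the deposited position by 1 base in AT1G08125 and HMGB2, 76 in NIA2 and 104 in GAE1. Whether the NIA2 and GAE1 matches are the listed sites was not tested. The match scored 5.5 in AT1G08125 (deposited 5) and 6 in NIA2 (deposited 5.5).

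AT1G08125, a methyltransferase family gene, had 0.582, 0.309 and 0.217 RPM in Recovery replicates 1, 2 and 3, 0.340, 0 and 0.978 RPM in HS replicates 1, 2 and 3, and 0 RPM in all Control libraries. In reads this was 2, 1 and 1 in Recovery, 1, 0 and 3 in HS and none in Control. Each Recovery library was above each Control library, whereas HS overlapped Control. Where the site was listed, folds over local background were 1 to 1.49. The log2 change was 0.44 (SE 0.31) for Recovery against Control (limma adjusted p = 0.403) and 0.47 (SE 0.31) for HS against Control (limma adjusted p = 0.508), and −0.02 (SE 0.31) for Recovery against HS (limma adjusted p = 0.999). With Control unlisted throughout, these fitted values depend on the pseudocount, and neither is a bound.

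HMGB2, an architectural chromatin protein, was unlisted in all Recovery libraries, and had 0.340, 0.753 and 0.652 RPM in HS replicates 1, 2 and 3 and 0.429, 0.349 and 0 RPM in Control replicates 1, 2 and 3. Each Recovery library was below each HS library, by 1 to 3 reads. The log2 change was −0.65 (SE 0.30) for Recovery against HS, where the limma p of 0.0423 became 0.392 after adjustment over 322 sites. It was −0.32 (SE 0.30) for Recovery against Control (limma adjusted p = 0.539) and 0.34 (SE 0.30) for HS against Control (limma adjusted p = 0.591). The site lay below its local background wherever it was listed, with folds of 0.357 to 0.875 and a background of up to 3.002 RPM. The same gene was also listed for miR414 in 6 libraries with 4.46 RPM in all. The slice position listed for miR414 was 583, and that for miR390a-3p was 589.

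NIA2, the main nitrate reductase, had 0, 0 and 0.434 RPM in Recovery replicates 1, 2 and 3, 0 RPM in all HS libraries, and 0, 0.349 and 0.947 RPM in Control replicates 1, 2 and 3. Recovery and HS both overlapped Control at 0. The log2 change was −0.29 (SE 0.26) for Recovery against Control (limma adjusted p = 0.513), −0.46 (SE 0.26) for HS against Control (limma adjusted p = 0.401) and 0.17 (SE 0.26) for Recovery against HS (limma adjusted p = 0.836). Its folds were 0.301 to 0.768, again below the local background, which reached 3.49 RPM.

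GAE1, an epimerase that makes the sugar nucleotide for pectin, had 0, 0.618 and 0 RPM in Recovery replicates 1, 2 and 3, 0, 0 and 0.652 RPM in HS replicates 1, 2 and 3, and 0, 0.349 and 0.947 RPM in Control replicates 1, 2 and 3. Every group had an unlisted library, and the ranges overlapped. Folds over local background were 0.795 to 1, so the GAE1 site was never above it. The log2 change was −0.23 (SE 0.34) for Recovery against Control (limma adjusted p = 0.713), −0.22 (SE 0.34) for HS against Control (limma adjusted p = 0.747) and −0.01 (SE 0.34) for Recovery against HS (limma adjusted p = 0.999).

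No member site passed the adjusted threshold of 0.05 in a contrast, and 1 of the 12 member tests had an unadjusted limma p under 0.05. Of all 322 tested sites, 9 passed for Recovery against Control (2.8%), 16 for HS against Control (4.97%) and 3 for Recovery against HS (0.932%), so that with 4 members tested, 0 called is near this background. The numbers with an unadjusted limma p under 0.05 were 62, 51 and 38 of 322. Of the 4 member sites, 1 was higher and 3 lower in Recovery than in Control, with a median log2 change of −0.26 beside −0.15 over all tested sites. In HS against Control 2 were higher and 2 lower (median 0.06, all sites −0.13), and in Recovery against HS 1 was higher and 3 lower (median −0.02, all sites −0.02). The last tally turned to 3 higher and 1 lower with libraries rescaled to the same listed signal, as AT1G08125 and GAE1 changed sign.

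Groups did not overlap at 1 of 4 members for Recovery above Control, as at 23 of all 322 sites (7.14%), and at 1 of 4 for Recovery below HS, as at 24 of all sites (7.45%). It was 0 of 4 in the other directions. The shares over all sites were 15.8% for Recovery below Control, 6.21% for HS above Control, 10.2% for HS below Control and 5.59% for Recovery above HS. An exact permutation test of the difference among the 3 groups, over all 280 ways to fill them, gave p = 0.0429 for HMGB2, p = 0.2 for AT1G08125, p = 0.464 for NIA2 and p = 0.786 for GAE1. An exact p under 0.05 was thus found at 1 of 4 members and at 54 of 322 sites (16.8%). Adjusted over all 322 sites the exact permutation p of HMGB2 was 0.256, and the lowest of any site was 0.192.

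The remaining weak sites were mostly single reads in single libraries. PID, the PINOID kinase of auxin transport, was listed for miR173-3p at 0.291 RPM in Recovery replicate 1 and 0.217 RPM in Recovery replicate 3, each 1 read, and in no other library. The best match in the PID transcript scored 4, against a deposited 6. It lay 353 bases from the deposited position, so it may be another stretch than the listed site. ALATS, the alanyl-tRNA synthetase, had 1.02 RPM for miR161.2 in HS replicate 1, the highest member value, and AT5G57830, of unknown function, had 0.652 RPM for miR161.2 in HS replicate 3. RABG3F, a small GTPase of vacuolar traffic, had 0.978 RPM for miR472-3p in HS replicate 3, and BPC4, a GAGA-binding transcription factor, had 0.326 RPM there. These 4 sites were unlisted in all Recovery and Control libraries.

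AT1G77610, an EamA-like transporter, had 0.251 RPM for miR400 in HS replicate 2, and MRG2, a chromatin protein of the MRG family, had 0.698 RPM for miR400 in Control replicate 2. AT1G77840, a translation initiation factor of the IF2/IF5 family, and AT4G07990, a DnaJ-domain protein, each had 0.429 RPM for miR173-5p in Control replicate 1. PTAC16, a protein of the plastid transcription machinery, had the 1 site of miR828, with a fold of 0.526. None of these pairs is on the list of known pairs. The 20 weakly paired sites outside the naming rule were listed in 1 library each except 2, IAA9 and AT1G67330, which were in 2, and their values ran from 0.291 to 0.858 RPM.

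Of the 37 sites, 32 could be placed in a RefSeq transcript, 22 at the deposited score, 6 at 0.5 above it and 4 below it. Placement took the best match anywhere in the transcript and did not use the deposited position. A score up to 0.5 above the deposited one was allowed. A placed match may therefore be another stretch than the listed site. The 3 well-paired sites were placed at their deposited score. By position, 30 placed sites were coding and 2 were in a 3′ UTR. The base opposite guide base 10 was 1 base past the deposited position at 9 sites, and at the other 23 it lay 0 to 353 bases away, with 220, 43 and 213 bases at the miR400, miR472-3p and miR161.2 well-paired sites. The cause of these shifts was not tested.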

How the data were processed

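Per the labels, nanoPARE libraries were made from total RNA of seedlings, and the submitters' processing notes name the build TAIR10. The authors ran the public nanoPARE pipeline, with version and settings not stated in those sources. Each deposited list gives 1 line per miRNA-target pair and slice site. The authors gave read ends at each slice site in RPM. The deposited ratio (fold) was found by arithmetic to be (slice-site RPM + 1) / (local background RPM + 1). The deposited p-value is the pipeline's adjusted p, reaching 0.999989, so that no line was dropped for a high p. The Allen score deposited by the authors ends at 6. Slice positions are bases of the named transcript.

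The commonest RPM of a library was taken as 1 read; between 89.2% and 94.4% of a library's values came out as whole reads (tolerance 0.01 of a read). The rest were fractions, so no count model was fitted. PCR copies could not be told from molecules. An unlisted site was set to 0 RPM, although it may have held reads.

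Groups and replicate numbers came from sample titles and treatment labels. With limma 3.58.1 in R 4.3.3, a linear model with a moderated, trended variance was fitted to log2(RPM + 1) values of sites listed in at least 3 of 9 libraries, all groups in 1 fit, with Benjamini-Hochberg adjustment over all 322 sites. Changes are on this log2 scale, which understates those of low sites. Single sites were also compared by exact permutation. Sums over members were not tested. On data simulated for HS against Control over 322 sites, the fit called 62.8% of planted 4-fold changes, 99.0% of planted 16-fold changes and 4.26% of unchanged sites. Over 5 repeats these were 500, 500 and 610 values, so most simulated sites were changed, which eases the adjusted threshold. Noise was normal on the log2 scale and not drawn as reads. The rates therefore do not give the power at member sites of about 1 read. P-values measure the spread between these libraries. Tables were handled in Python 3.11.15 (NumPy 2.4.6, pandas 2.3.3, SciPy 1.17.1).

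Sites were matched to RefSeq TAIR10.1 transcripts by the best score anywhere in the transcript, without use of the deposited position. Coordinates (1-based) are those of the sequence match. Precursors of miRNAs were left out of the search for paired loci.

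The members, the known pairs and the other lists were chosen with earlier results of these data known, and part of a supplementary nanoPARE table had been seen. Named were all pairs with a score of 4 or less and all known pairs listed. Above 4, the rule took pairs listed in at least 4 libraries, with a deposited p under 0.05 in any, or among the 3 with the largest summed RPM of their miRNA number, and member sites called by limma. IAA9, AT1G67330 and STIPL1 were named after their values were seen.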

Additional observations from a re-analysis of the deposited data

How the results depend on the processing

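No member site passed the threshold under any of the 14 alternatives, which gave 159 values for the 12 site contrasts with adjusted p from 0.186 upward (limma), and 148 values kept their direction. The other 11 were at AT1G08125 or GAE1, near 0. Under the other site filters, the replicate block or the loss of a library outside the contrast, the log2 change could not move. The 148 therefore include values whose direction was fixed in advance, and they do not measure robustness. For Recovery against HS, AT1G08125 was at 0.087 with a pseudocount of 0.25 RPM and at 0.30 with rescaled libraries, and −0.26 to 0.23 without 1 library. GAE1 was at 0.11 with rescaled libraries, and without 1 library it ran from −0.24 to 0.23 for Recovery against HS, −0.46 to 0.026 for HS against Control and −0.47 to 0.016 for Recovery against Control. NIA2 was no longer tested without Recovery replicate 3, Control replicate 2 or Control replicate 3.

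Over all sites, Recovery against Control gave 9 calls, and 14 with a pseudocount of 0.25 RPM, 4 with no filter and 5 with rescaled libraries (2 lower and 3 higher, beside 7 lower and 2 higher). HS against Control gave 16, and 9 rescaled (1 lower and 8 higher, beside 5 lower and 11 higher). Recovery against HS gave 3, and 5 with no filter. Rescaling took the median site to −0.02 for Recovery against Control, beside −0.15. Without 1 library the counts ran from 1 to 14 for Recovery against Control (1 without Recovery replicate 1 or Control replicate 2), 7 to 15 for HS against Control (7 without HS replicate 3 or Control replicate 2) and 2 to 13 for Recovery against HS (13 without HS replicate 2).

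With the replicate number as a replicate block the counts were 11, 14 and 3 for Recovery against Control, HS against Control and Recovery against HS, and no member was called. Same-numbered libraries did not deviate together (r −0.098 to 0.099 across sites). With a median of 1 read per listed line, such correlations cannot tell whether same-numbered libraries shared a batch.

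Rescaling moved the weakly paired sum to 2.62 RPM in Recovery and 2.42 RPM in Control. Without 1 library it was 1.5002 to 1.75 RPM in Recovery, 2.07 to 4.45 RPM in HS and 2.83 to 3.28 RPM in Control, and the well-paired sum 0 to 0.163 RPM in HS and 0.0789 to 0.428 RPM in Control. A score limit of 3.5 or 4.5 could not change either class, because no member scored between 3 and 5. No position was named for more than 1 guide. Leaving out HS replicate 3 from the member counts and from the counts of sites in 1 group only was chosen after seeing the data. It took the member sites in HS only to 5 of 29 (17.2%), beside 13 of 37 (35.1%). Over all sites that share went to 14.0%, beside 21.7%. At 1 read per typical line, depth limits every member value.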
